A study of Homo sapiens with 8 samples.

Results

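The regions described here were Flag-ARID1A ChIP-seq peak regions that lay within 1 kb of a nuclear tRNA gene. Peaks of the 6 deposited peak lists were merged wherever they shared at least 1 bp, which gave 37969 regions on the assembled chromosomes, and 269 of these came within 1 kb of a gene that RefSeq annotates as tRNA on GRCh38. They are called tRNA regions below. Of 443 nuclear tRNA genes, 291 had a tRNA region within 1 kb and 152 had none. A region is said to hold a tRNA gene where that gene lay within 1 kb of it, inside the region or not. A tRNA region held 1 tRNA gene in 196 cases and more in 73, with at most 5. Of the 269, 202 overlapped a tRNA gene itself.

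The study mapped ARID1A binding by chromatin immunoprecipitation with a Flag antibody in Huh7, a hepatocellular carcinoma cell line. All groups were ARID1A-knockout Huh7 cells in which a lentivirus stably expressed Flag-tagged ARID1A. The groups carried wild-type ARID1A (WT), ARID1A with the missense change V2084D (V2084D), or ARID1A V2084D together with knockdown of STUB1 (V2084D shSTUB1), with 2 libraries each. STUB1 is a ubiquitin ligase that works with molecular chaperones. The tagged protein was thus expressed from the virus and not from its own locus, and whether the cells were 1 clone or a pool is not given in the sources used here. The 2 WT inputs that the labels also list were not analysed here. Whether the libraries of a group stem from different cultures is not said in the labels, so each p-value below covers the scatter of the libraries alone, and that scatter may be technical.

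ARID1A is a DNA-binding subunit of the BAF form of the SWI/SNF chromatin remodelling complex, which moves and evicts nucleosomes. tRNA genes are short and are transcribed by RNA polymerase III from promoter elements inside the gene, the A box and the B box. TFIIIC binds these elements and places TFIIIB upstream of the start, and TFIIIB recruits the polymerase. Human tRNA genes lie partly in large clusters, of which those on the short arm of chromosome 6 and the long arm of chromosome 1 are the best known, and many amino acids are served by several gene copies of identical mature sequence.

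The peak lists differed in length. The WT lists held 27587 and 26515 peaks, the V2084D lists 6000 and 12384, and the V2084D shSTUB1 lists 8904 and 6663. The files give peaks and no read counts, so the read depth of each library is unknown. Each list came from 1 library, and a peak's fold enrichment is the authors' value for that peak, used here only to describe or rank peaks within a list. Values from several lists are printed side by side for each region and are not compared between lists.

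The sequences below show tRNA genes that lay whole inside the 300-base RefSeq promoter window of a neighbouring gene (GRCh38.p14), chosen to set genes with peaks in most lists beside genes with peaks in few or none. Each is printed 5′ to 3′ on the strand of the neighbouring gene, and capitals mark the tRNA gene. None of the 443 tRNA genes had a promoter window of its own, and 14 lay whole in the window of a neighbour. The first gene, TRF-GAA1-5 (tRNA-Phe) in the LOC124903191 window at chr13:94549492-94549791 on the plus strand, had a peak in all 6 lists.
TRF-GAA1-5: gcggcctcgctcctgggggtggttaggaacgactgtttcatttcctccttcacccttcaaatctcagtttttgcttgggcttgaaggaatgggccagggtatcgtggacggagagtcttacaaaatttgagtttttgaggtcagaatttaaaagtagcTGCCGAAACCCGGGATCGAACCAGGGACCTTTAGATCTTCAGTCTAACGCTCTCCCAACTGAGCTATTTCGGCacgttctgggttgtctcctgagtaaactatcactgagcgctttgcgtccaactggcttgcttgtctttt
TRG-CCC2-2 (tRNA-Gly) in the LOC100287175 window at chr16:636702-637001 on the plus strand also had a peak in all 6 lists.
TRG-CCC2-2: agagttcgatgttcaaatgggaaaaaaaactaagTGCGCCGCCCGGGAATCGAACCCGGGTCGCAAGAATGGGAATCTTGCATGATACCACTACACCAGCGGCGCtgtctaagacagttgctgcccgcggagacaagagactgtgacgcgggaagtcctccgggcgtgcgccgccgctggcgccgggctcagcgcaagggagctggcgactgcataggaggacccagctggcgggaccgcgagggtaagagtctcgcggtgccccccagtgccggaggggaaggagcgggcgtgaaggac
TRI-TAT2-2 (tRNA-Ile) in the window of LARRPM at chr6:27020257-27020556 on the minus strand had a peak in 5 lists, all but V2084D library 2.
TRI-TAT2-2: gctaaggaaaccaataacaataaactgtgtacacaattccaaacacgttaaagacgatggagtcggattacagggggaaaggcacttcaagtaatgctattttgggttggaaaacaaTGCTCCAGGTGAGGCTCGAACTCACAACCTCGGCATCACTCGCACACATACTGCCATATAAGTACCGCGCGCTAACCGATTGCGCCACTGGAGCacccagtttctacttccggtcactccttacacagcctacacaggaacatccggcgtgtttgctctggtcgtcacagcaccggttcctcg
TRI-AAT8-1 (tRNA-Ile) in the LOC124901292 window at chr6:27668524-27668823 on the minus strand had a peak in WT library 1 only.
TRI-AAT8-1: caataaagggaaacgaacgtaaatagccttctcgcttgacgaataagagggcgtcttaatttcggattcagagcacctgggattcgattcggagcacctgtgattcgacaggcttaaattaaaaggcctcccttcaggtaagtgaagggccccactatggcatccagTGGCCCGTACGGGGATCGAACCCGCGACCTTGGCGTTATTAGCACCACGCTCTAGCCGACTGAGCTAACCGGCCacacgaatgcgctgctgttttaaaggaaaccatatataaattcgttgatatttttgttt
TRL-AAG2-2 (tRNA-Leu) in the window of LINC01556 at chr6:28943534-28943833 on the plus strand had no peak in any list.
TRL-AAG2-2: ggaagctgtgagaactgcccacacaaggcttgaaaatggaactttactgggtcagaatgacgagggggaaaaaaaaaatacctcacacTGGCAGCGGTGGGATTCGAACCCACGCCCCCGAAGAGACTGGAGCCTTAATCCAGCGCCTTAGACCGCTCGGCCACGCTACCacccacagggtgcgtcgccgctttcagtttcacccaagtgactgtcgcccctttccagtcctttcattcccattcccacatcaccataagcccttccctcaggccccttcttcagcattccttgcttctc
TRN-GTT4-1 (tRNA-Asn) in the LOC105376805 window at chr1:16889617-16889916 on the minus strand had no peak in any list.
TRN-GTT4-1: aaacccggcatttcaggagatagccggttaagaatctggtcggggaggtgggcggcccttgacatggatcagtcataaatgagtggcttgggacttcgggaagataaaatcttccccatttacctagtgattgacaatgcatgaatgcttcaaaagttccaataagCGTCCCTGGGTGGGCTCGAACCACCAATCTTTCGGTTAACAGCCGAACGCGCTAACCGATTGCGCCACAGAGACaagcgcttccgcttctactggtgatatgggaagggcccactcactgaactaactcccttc
A common form of the B box, the letters GGTTCGA followed by any 2 bases and CC, was searched for on both strands. It was present in 5 of the 6 printed windows: TRF-GAA1-5, TRG-CCC2-2, TRI-AAT8-1, TRL-AAG2-2 and TRN-GTT4-1, each inside the tRNA gene on the strand opposite to the one printed. It was not found in the TRI-TAT2-2 window. Among all 35116 promoter windows 65 (0.185%) held it, against 13 of 29 windows that overlapped a tRNA gene (44.8%) and 11 of 71 windows that overlapped a tRNA region (15.5%). It was in 9 of the 14 windows with a whole tRNA gene. Among those not printed, TRP-TGG3-2 and TRP-TGG3-5 had peaks in all 6 lists and lacked the motif. TRN-GTT6-1 and TRH-GTG1-3, also not printed, had no peak in any list and had the motif. The motif was thus in some windows of tRNA genes with peaks in all 6 lists and in windows of tRNA genes with none.

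The TRF-GAA1-5 region at chr13:94548792-94550393, which also reached an end of DCT, a melanin synthesis gene, had fold enrichments of 5.36 and 4.23 in WT, 3.86 and 4.09 in the V2084D libraries, and 3.48 and 3.94 in those of V2084D shSTUB1. The TRG-CCC2-2 region at chr16:636347-637115 had 3.45 and 6.19 in the WT libraries, 5.67 and 7.28 with V2084D, and 7.69 and 3.37 with V2084D shSTUB1. The TRG-CCC2-2 peak ranked near the top of some lists, at 265 of 12384 in V2084D library 2 and 220 of 8904 in V2084D shSTUB1 library 1, and near the bottom of others, at 24040 of 27587 in WT library 1 and 6204 of 6663 in V2084D shSTUB1 library 2. TRI-TAT2-2 at chr6:27019935-27020645 had values of 4.62 and 4.39 in WT, 4.16 in V2084D library 1, and 4.67 and 5.38 in V2084D shSTUB1, and the single peak of TRI-AAT8-1 had 2.98.

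More tRNA genes had a peak in WT than in either mutant group. In WT, 273 and 262 of the 443 tRNA genes had a peak within 1 kb, in V2084D 149 and 180, and in V2084D shSTUB1 194 and 189. Both WT libraries were above all 4 mutant libraries, and both V2084D shSTUB1 libraries were above both V2084D libraries. As a share of tRNA genes this was 60.4% ± 1.76 (SD, n = 2) in WT, 37.1% ± 4.95 in V2084D and 43.2% ± 0.80 in V2084D shSTUB1. V2084D was lower than WT (difference -23.3 percentage points, -28.0 to -18.5 over the pairs of libraries). V2084D shSTUB1 was also lower than WT (difference -17.2 points, -19.0 to -15.3) and was higher than V2084D (difference 6.09 points, 2.03 to 10.2). The two-sided exact permutation test gave p = 0.333 for each of the 3 (adjusted p = 0.333), the smallest value that 2 libraries against 2 can give. Both mutant groups were set against the same WT lists.

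Counted as regions, 231 (85.9%) and 209 (77.7%) of the 269 tRNA regions had a peak in the WT libraries, against 67.0% and 63.9% of all 37969 regions. In V2084D 99 (36.8%) and 126 (46.8%) had one, against 14.5% and 29.7%, and in V2084D shSTUB1 135 (50.2%) and 122 (45.4%), against 21.3% and 15.9%. V2084D had 1.97-fold fewer than WT (log2 difference -0.98, -1.22 to -0.73 over pairs, exact permutation p = 0.333, adjusted p = 0.5), and V2084D shSTUB1 had 1.71-fold fewer (log2 difference -0.78, exact permutation p = 0.333, adjusted p = 0.5). The 2 mutant groups overlapped (log2 difference 0.20, -0.05 to 0.45, exact permutation p = 0.667). These counts moved with the length of the lists. With every list reduced to its 6000 strongest peaks, the difference from WT changed sign: on the log2 scale it was 0.17 for V2084D and 0.43 for V2084D shSTUB1, and in tRNA genes with a peak it was 0.45 and 6.77 percentage points.

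Peaks near tRNA genes took a larger share of each mutant list than of the WT lists. They made up 0.932% and 0.910% of the peaks in WT, 1.97% and 1.19% in V2084D, and 1.76% and 2.29% in V2084D shSTUB1, so that no mutant library overlapped WT. The means were 0.921% ± 0.0153 (SD, n = 2), 1.58% ± 0.553 and 2.03% ± 0.379. V2084D was 0.66 percentage points above WT and V2084D shSTUB1 1.11 points above WT (exact permutation p = 0.333 and adjusted p = 0.5 for both). The V2084D shSTUB1 and V2084D libraries overlapped (difference 0.44 points, exact permutation p = 0.667).

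Protein-coding genes, counted by a peak within 1 kb of either end, gave the scale for these shares. In both WT lists 56.2% of tRNA genes and 52.2% of 20033 protein-coding genes had a peak, in both V2084D lists 28.9% and 14.9%, and in both V2084D shSTUB1 lists 35.9% and 15.6%. In single lists the protein-coding share was 58.1% and 56.7% in the WT libraries, 19.2% and 31.9% with V2084D, and 27.6% and 20.5% with V2084D shSTUB1. In all 6 lists 111 tRNA genes (25.1%) and 9.14% of protein-coding genes had a peak, and no list had one near 34.3% of tRNA genes and 36.6% of protein-coding genes. A tRNA gene offers a shorter stretch for a peak to fall in than the 2 ends of a protein-coding gene. tRNA genes also lie close together: 73 of the 269 tRNA regions held more than 1, and up to 5, so 1 region can count for several genes. The shares are thus a description.

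tRNA regions were found in more lists than regions at large. Of the 269, 66 (24.5%) had a peak in all 6 lists, against 5.48% of all 37969 regions, and 65 (24.2%) had a peak in 1 list, against 51.5%. The shares with a peak in 5 lists were 12.6% and 5.63%. The count of 66 was 35 with lists of 6000 peaks each, 15 with a −log10 q of at least 5 and 14 with a fold of at least 5. The lists differ in length and the regions were merged over all of them, so the distribution is given with no test.

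Of the 66 tRNA regions with a peak in all 6 lists, 19 lay on chromosome 1, 10 on chromosome 17 and 4 on chromosome 6, and 27 had an end of a protein-coding gene within 1 kb. The 5 that ranked best in their worst list, by the authors' −log10 q, were neighbouring repeat units of 1 tRNA array on chromosome 1. The unit at chr1:161453881-161458669, with TRE-CTC1-3, TRG-TCC2-3, TRD-GTC2-3, TRL-CAG1-3 and TRG-GCC1-3, ranked 1 and 2 among all peaks of the WT lists, 5 and 5 in V2084D, and 1 and 4 in V2084D shSTUB1. These genes encode tRNA-Glu, tRNA-Gly with anticodon TCC, tRNA-Asp, tRNA-Leu and tRNA-Gly with anticodon GCC. Its fold enrichments were 9.68 and 8.72 in WT, 7.86 and 5.95 in the V2084D libraries, and 7.04 and 6.28 in those of V2084D shSTUB1. The other 4 units, which start at 161468718, 161461335, 161446541 and 161439708, had worst ranks of 15, 40, 46 and 62. A high rank by −log10 q did not always go with a high fold enrichment. The unit at 161468718 stood at percentiles of fold enrichment in its own list of 82.3 and 76.6 in WT. Its percentiles were 59.6 and 49.6 in V2084D, and 46.7 and 41.4 in V2084D shSTUB1.

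Outside that array, the best-ranked tRNA region in all 6 lists was at chr19:1383102-1384318, with TRF-GAA1-6 (tRNA-Phe), TRN-GTT2-6 (tRNA-Asn) and an end of NDUFS7, a subunit of respiratory complex I. Its fold enrichments were 10.3 and 18.5 in the WT libraries, 6.52 and 7.92 with V2084D, and 9.78 and 9.96 with V2084D shSTUB1. The region at chr17:8184949-8188063, with TRW-CCA3-3, TRS-GCT4-3, TRT-AGT1-1, TRI-AAT5-5 and an end of BORCS6, had 10.2 and 11.6 in the WT libraries, 6.0 and 6.52 with V2084D, and 8.39 and 7.85 with V2084D shSTUB1. BORCS6 is a subunit of the complex that positions lysosomes. Single-gene regions completed the 10. They were TRQ-CTG1-4 (tRNA-Gln) at chr15:65868876-65870692 beside RAB11A, a recycling endosome GTPase, TRT-CGT2-1 (tRNA-Thr) at chr16:14285175-14286597, and TRS-GCT4-2 (tRNA-Ser) at chr15:40593707-40594751 beside the kinetochore gene KNL1. TRT-CGT2-1 had fold enrichments of 12.1 and 9.09 in WT, 7.0 and 9.01 in the V2084D libraries, and 10.9 and 6.81 in those of V2084D shSTUB1.

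WT regions near tRNA genes were covered by the mutant lists more often than other WT regions. A reproducible WT region had a peak in both WT lists: 181 of the 269 tRNA regions were reproducible, of 15781 in all. V2084D libraries 1 and 2 had a peak in 51.4% and 59.7% of the 181, against 27.7% and 46.8% of all reproducible regions, and the V2084D shSTUB1 libraries in 68.0% and 63.5%, against 41.6% and 31.6%. All 4 mutant lists had a peak in 66 of the 181 (36.5% against 13.2%), and none had one in 31 (17.1% against 35.0%). Against the 15600 WT regions away from tRNA genes, the mean coverage was 60.6% to 36.7%. The difference was positive in 4 of 4 mutant libraries, at 23.9, 13.0, 26.6 and 32.3 percentage points (mean 24.0). The exact sign-flip permutation test gave p = 0.125, the smallest that 4 libraries allow, and the libraries share the same WT lists.

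The V2084D shSTUB1 libraries covered 65.7% ± 3.13 (SD, n = 2) of the reproducible WT tRNA regions and the V2084D libraries 55.5% ± 5.86. The difference was 10.2 percentage points, 3.87 to 16.6 over the pairs of libraries, with no overlap between the groups (exact permutation p = 0.333, the smallest possible). Of the 15600 other WT regions, the V2084D shSTUB1 libraries covered 41.3% and 31.3% and the V2084D libraries 27.4% and 46.6%. For these other regions the groups overlapped.

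The difference in coverage was positive on chromosome 1 and mostly negative on chromosome 6, and this contrast between chromosomes was not tested. On chromosome 1, the 35 reproducible tRNA regions were covered at 68.6% and 77.1% by V2084D and 85.7% and 65.7% by V2084D shSTUB1, against 42.6%, 61.7%, 59.2% and 48.0% of 1570 other WT regions. On chromosome 6, the 47 tRNA regions were covered at 21.3%, 29.8%, 44.7% and 42.6%, against 34.0%, 51.0%, 46.7% and 36.4% of 673 other regions. Only V2084D shSTUB1 library 2 was higher for tRNA regions there. On the remaining chromosomes, 99 tRNA regions were covered at 59.6%, 67.7%, 72.7% and 72.7%, against 25.3%, 44.7%, 39.0% and 29.0% of 13357. Without chromosome 1 the mean difference was 22.5 percentage points, and without chromosomes 1 and 6 it was 33.7. The stretch of chromosome 6 that holds most of its tRNA genes, chr6:26286526-28989083 with 144 genes, had 44 reproducible tRNA regions and 31 other WT regions. The difference between them was -1.17 and -17.9 percentage points in V2084D and 2.2 and 12.8 in V2084D shSTUB1.

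The difference was also taken among WT regions of like strength and like neighbours, in comparisons chosen after the data were seen. The width of the regions was not matched. In 4 bins of WT strength (the weaker of the 2 WT percentiles of fold enrichment) the mean difference was 15.2, 25.1, 17.3 and 23.8 percentage points from the weakest to the strongest. It was positive in all 4 libraries except in the bin from 50 to 75, where V2084D library 2 was at -3.54. Where an end of a protein-coding gene lay within 1 kb, 53 tRNA regions were covered at 64.2%, 71.7%, 81.1% and 77.4%, against 31.7%, 52.0%, 45.8% and 34.5% of 9656 others. Where none did, 128 tRNA regions were covered at 46.1%, 54.7%, 62.5% and 57.8%, against 20.5%, 37.9%, 34.1% and 25.9% of 5944. tRNA regions whose WT summits both lay within 200 bp of the gene (90) were covered at 56.7% and 62.2% by V2084D and 75.6% and 67.8% by V2084D shSTUB1. With a WT summit over 200 and up to 1000 bp away (81 regions) the values were 50.6%, 61.7%, 65.4% and 65.4%, and of 10 with a summit farther away at most 2 were covered by any library.

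A peak in both WT lists and in neither V2084D list was found at 59 tRNA regions, 21.9% of them, close to the 19.5% of all regions. A peak in both WT lists and in no mutant list was found at 31 (11.5%, against 14.6%). Both counts moved with the lists used. They were 108 and 71 without WT library 2, 89 and 61 without WT library 1, and 5 and 1 with lists of 6000 peaks each. Without a WT library the patterns asked for a peak in the other WT list only, which can raise the counts by construction. Of the 31, 18 lay on chromosome 6 and 2 on chromosome 1, and 5 had an end of a protein-coding gene within 1 kb. At 11 of the 31 at least 1 tRNA gene of the region had another peak within 1 kb in a mutant list, so the pattern held for the region and not for that gene. Counted by gene, 21 tRNA genes had a peak in both WT lists and no mutant list, 13 of them on chromosome 6. The best-ranked was TRQ-CTG1-2 (tRNA-Gln) at chr6:27518901-27519561, with fold enrichments of 5.69 and 7.09 in WT. It was followed by TRL-TAA4-1 (tRNA-Leu) at chr6:27231023-27232068, with 5.84 and 5.14. Further down came TRL-CAG1-7, the pair TRK-TTT5-1 and TRF-GAA1-3 on chromosome 11 (4.65 and 5.96), TRM-CAT4-2 (4.81 and 4.08), TRV-AAC1-1 beside MYNN on chromosome 3 (6.29 and 4.39), TRY-GTA1-1 (6.54 and 4.15), TRI-TAT2-1 on chromosome 2, TRNAA-AGC and TRY-GTA6-1 beside ABT1. Not all of these regions overlapped the tRNA gene. The gap was 386 bp for TRL-TAA4-1, 356 for TRL-CAG1-7, 455 for TRV-AAC1-1, 620 for TRI-TAT2-1 and 355 for TRY-GTA6-1. TRL-CAG1-7 and TRI-TAT2-1 belong to the 11. TRI-TAT2-1 had a second region at chr2:42809838-42811143. That region had fold enrichments of 6.87 and 5.81 in the WT libraries, 4.89 and 3.19 with V2084D, and 3.42 and 3.45 with V2084D shSTUB1.

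tRNA regions with peaks in mutant lists only were few: 10 of the 269, against 4042 of all 37969 regions. No tRNA region had a peak in both V2084D lists and no WT list (0.203% of all regions), and 1 had a peak in both V2084D shSTUB1 lists and no WT list (0.372%, against 0.155%). That region held TRC-GCA14-1 (tRNA-Cys) at chr17:38861637-38862383, with fold enrichments of 5.24 and 5.27. With lists of 6000 peaks each these counts were 11 and 12. Leaving out 1 library, and with it that library's condition in the pattern, gave at most 4 and 3.

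At 8 tRNA regions (2.97%, against 1.04% of all regions) both WT and both V2084D shSTUB1 lists had a peak and neither V2084D list did. The best-ranked held TRA-CGC3-1 (tRNA-Ala) and TRG-GCC2-2 (tRNA-Gly) beside GPD2, the mitochondrial glycerol-3-phosphate dehydrogenase, at chr2:156400209-156401202. Its fold enrichments were 5.29 and 5.53 in WT and 5.14 and 4.04 in V2084D shSTUB1. The others held TRD-GTC1-1 with TRW-CCA4-1, TRL-TAG3-1 (5.34 and 7.84 in WT, 3.91 and 5.34 in V2084D shSTUB1), TRX-CAT1-7 with TRG-GCC2-3, TRK-CTT1-1, TRR-ACG1-3 beside PRMT5, TRQ-CTG5-1, and TRE-CTC1-7 beside NCOA7. The TRK-CTT1-1 and TRR-ACG1-3 regions did not overlap their tRNA gene and lay 397 and 597 bp from it. TRR-ACG1-3 had a second region at chr14:22929036-22929995 with peaks in all 6 lists. The reverse pattern, a peak in both WT and both V2084D lists and neither V2084D shSTUB1 list, was found at 2 (0.743%, against 1.09%). These were TRL-CAA4-1 with TRE-CTC2-1 beside PGBD2 at chr1:248872583-248874563 (5.66 and 5.79 in WT, 4.08 and 3.32 in V2084D) and TRD-GTC2-8 at chr12:96034875-96036085 (3.57 and 2.78 in WT, 4.21 and 4.60 in V2084D). The 2 counts were 17 and 6 without V2084D library 1, 22 and 5 without V2084D library 2, 16 and 10 without V2084D shSTUB1 library 1, and 20 and 5 without V2084D shSTUB1 library 2. Each left-out library took its condition out of the pattern, which can raise the counts by construction. With lists of 6000 peaks each they were 2 and 1.

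Chromosome 1 was set apart because the mutant lists had more of their peaks there. It held 10.2% and 9.89% of the peaks in WT, 19.0% and 17.9% in V2084D, and 16.7% and 18.5% in V2084D shSTUB1. Of its 98 tRNA genes, 63 and 58 had a peak in WT, 50 and 54 in V2084D, and 54 and 47 in V2084D shSTUB1. WT library 2 stood only 4 genes above the highest mutant libraries. As a share of all tRNA genes with a peak, chromosome 1 held 22.6% ± 0.664 (SD, n = 2) in WT, 31.8% ± 2.52 in V2084D and 26.4% ± 2.10 in V2084D shSTUB1. V2084D was 9.17 percentage points above WT and V2084D shSTUB1 3.74 above WT, and V2084D shSTUB1 was lower than V2084D (difference -5.43), each with an exact permutation p of 0.333 (adjusted p = 0.333). With lists of 6000 peaks each, the difference of V2084D shSTUB1 from WT was -1.44. In the mutant lists chromosome 1 thus held a larger share of all peaks and fewer tRNA genes with a peak than in WT, and V2084D shSTUB1 library 2, with 18.5% of its peaks there, had the lowest count of 47. The part of the denser chromosome 1 peaks in the tRNA share was not tested.

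On chromosome 6, which holds 155 of the tRNA genes, 69 and 66 had a peak in WT, 13 and 22 in V2084D, and 30 and 27 in V2084D shSTUB1. The 3 groups did not overlap, in lists of unequal length. The tRNA stretch of this chromosome held 113 and 109 peaks of any kind in WT and 17 and 34 in V2084D. In V2084D shSTUB1 it held 38 and 29. On the other chromosomes, of 190 tRNA genes, 141 and 138 had a peak in WT, 86 and 104 in V2084D, and 110 and 115 in V2084D shSTUB1, again with no overlap. A peak in all 6 lists was present at 43 of the 98 tRNA genes on chromosome 1, at 4 of 155 on chromosome 6 and at 64 of 190 elsewhere. The chromosome 6 share of all peaks was 4.37% and 4.23% in WT and 5.00% to 5.33% in the mutant lists. The tRNA stretch on its short arm held 0.418% and 0.419% of all peaks in WT, 0.289% and 0.279% in V2084D, and 0.434% and 0.443% in V2084D shSTUB1.

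**Figure D1:**
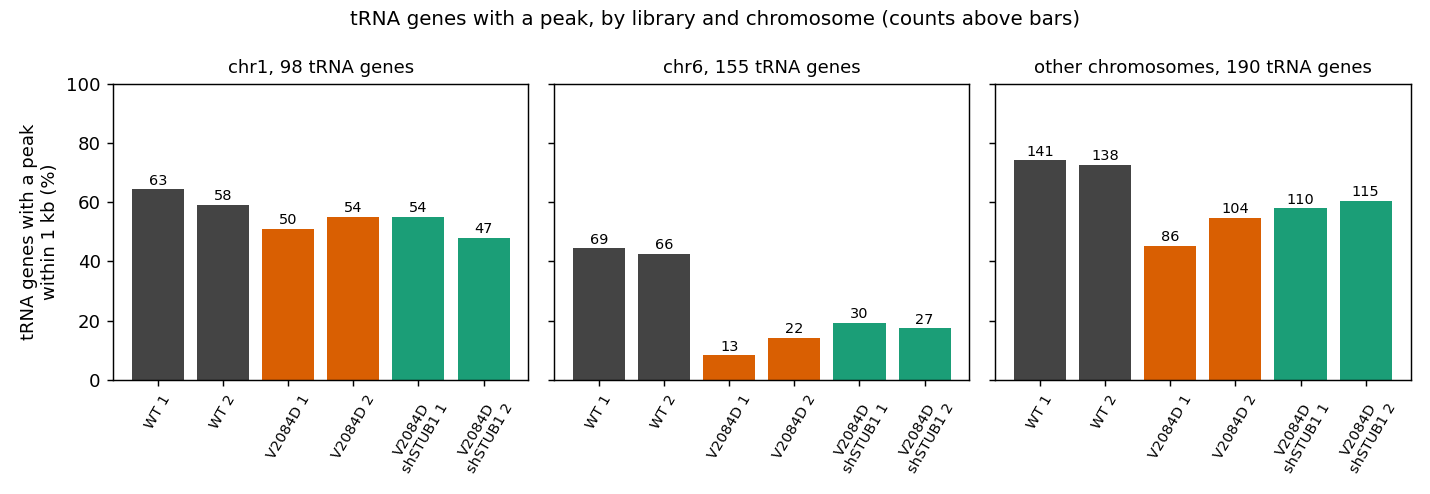
Share of tRNA genes with a peak within 1 kb (y axis, percent, with the number above each bar) in each library (x axis) for chromosome 1 (98 genes), chromosome 6 (155 genes) and the other chromosomes (190 genes). Chromosome 6 bars go from 69 and 66 genes in WT to 13 and 22 in V2084D, while chromosome 1 bars stay between 47 and 63.

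Among the remaining chromosomes, chromosome 17 had the most tRNA genes with a peak: of its 33, 30 and 31 in the WT libraries, 20 and 27 with V2084D, and 29 and 28 with V2084D shSTUB1. Chromosome 5 had 16 of 18 in both WT libraries, 16 and 12 in V2084D, and 15 in each V2084D shSTUB1 library, and V2084D library 1 exceeded the longer list of V2084D library 2 there. Chromosome 16 (26 genes) had 19 and 18, 10 and 13, and 10 and 15, and chromosome 14 (19 genes) had 16 and 15, 11 and 10, and 12 and 13, in the same order. On chromosome 19 all 7 genes had a peak in both WT libraries, and 7, 5, 6 and 7 had one in the mutant libraries. On chromosome 7, 1 of 22 had a peak in any list. Chromosome 13 had peaks at all 4 of its genes in 5 lists and at 3 in V2084D library 1, whereas chromosome 11 (13 genes) had 11 and 10 in WT against 4 and 7 in V2084D and 7 and 8 in V2084D shSTUB1, and chromosome 12 (9 genes) had 9 and 9 against 2 and 6, and 5 and 8. Chromosome 2 (8 genes) had 7 and 7, 3 and 4, and 6 and 5, and chromosome 15 (9 genes) had 8 and 8, 6 and 8, and 7 and 4. Chromosomes 3, 8, 9, 10, 21 and X had 1 to 5 tRNA genes each, and the single tRNA genes of chromosomes 4, 18 and 22 had no peak in any list.

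tRNA genes less than 100 kb apart were chained into clusters. There were 30 clusters of 3 or more genes, holding 323 genes, and 120 genes lay outside them. Genes outside clusters had a peak in 84 and 83 cases in WT, 52 and 59 in V2084D, and 68 and 63 in V2084D shSTUB1, which is 69.6%, 46.2% and 54.6% on average. Genes in clusters had one in 57.0%, 33.7% and 39.0%.

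The large clusters fell at both extremes. The cluster at chr1:161399700-161612029, with 32 genes for 6 amino acids of which 12 are tRNA-Gly, had 31 and 29 genes with a peak in WT, 29 and 30 in V2084D, and 29 and 28 in V2084D shSTUB1, and 28 had one in all 6 lists. The largest cluster, 43 genes at chr6:28474552-28989083, had 5 and 6 in WT and 1 to 3 in the mutant lists, and 36 of its genes, TRL-AAG2-2 among them, had none. The other 3 of the 5 largest also lay on chromosome 6. The 33 genes at chr6:27478812-27795932 had 19 and 17 in WT, 4 and 3 in the V2084D libraries, and 5 and 6 in those of V2084D shSTUB1. The 31 genes at chr6:26521208-26828299 had 15 and 17, 4 and 7, and 6 and 7. The 21 genes at chr6:27020346-27335062 had 15 and 11, 2 and 5, and 5 and 4. In each of these 3, all 4 mutant libraries were below both WT libraries, and the 2 mutant groups met or overlapped in all but the first. Protein-coding genes at large also stood lower in the mutant lists, at 19.2% to 31.9% against 58.1% and 56.7% in WT.

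Some clusters on other chromosomes had a peak at most genes in every list, and others did not. All 18 genes at chr17:8119155-8227064, of which 7 have an end of a protein-coding gene within 1 kb, had a peak in every list except V2084D library 1, where 15 did. At chr5:181097070-181222467, 16 of 17 genes had a peak in WT and in V2084D library 1, 12 in V2084D library 2 and 15 in each V2084D shSTUB1 library. The 4 genes at chr1:146035692-146039473 had a peak in every list. At chr11:59550629-59566452, 8 and 7 of 8 genes had one in WT, 1 and 4 in V2084D, and 4 and 5 in V2084D shSTUB1. The 5 genes at chr12:124921755-124940037 had a peak in both WT libraries and in V2084D shSTUB1 library 2, while V2084D had 0 and 4 and V2084D shSTUB1 library 1 had 2. None of the 19 genes of the chr7:149310190-149415209 and chr7:149546540-149707740 clusters, 18 of them tRNA-Cys, had a peak in any list.

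By amino acid, tRNA-Asp had a WT peak at nearly every gene. Of 13 tRNA-Asp genes 12 and 13 had a peak in WT, 8 and 9 in V2084D, and 8 and 10 in V2084D shSTUB1. Initiator tRNA-Met, which starts every protein, had 8 and 6 of 8 in WT, 2 and 4 in V2084D, and 6 and 5 in V2084D shSTUB1. Elongator tRNA-Met, with 8 of 11 genes on chromosome 6, had 5 and 6 in WT, 1 in each V2084D library, and 1 and 0 in V2084D shSTUB1. The V2084D shSTUB1 counts overlapped WT for the initiator genes and lay below WT for the elongator genes, and the difference between these small sets was not tested. On chromosome 6 alone, initiator genes had 6 and 4 in WT and 4 and 3 in V2084D shSTUB1. Elongator genes had 2 and 3 against 0 and 0 there. All tRNA genes stood at 61.6% and 59.1% in WT and at 43.8% and 42.7% in V2084D shSTUB1.

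tRNA-Gly, with 21 of 33 genes on chromosome 1, had 22 and 21 genes with a peak in WT, 16 and 15 in V2084D, and 20 in each V2084D shSTUB1 library. tRNA-Leu (32 genes) had 24 and 22, 16 and 19, and 17 and 20, with 14 genes in all 6 lists, and tRNA-Pro (20) had 17 and 16, 12 and 13, and 13 and 13, with 10 in all 6. tRNA-Arg (26) had 18 and 20, 8 and 15, and 18 and 15. tRNA-Val (30) had 23 and 22, 14 and 13, and 19 and 14. For tRNA-Arg, V2084D shSTUB1 library 1 reached the count of WT library 1.

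In WT, tRNA-Ala and tRNA-Cys had the fewest peaks for their gene number, while in V2084D shSTUB1 elongator tRNA-Met had a lower share than either. tRNA-Ala, with 31 of 38 genes on chromosome 6, had 11 and 12 in WT, against 3 and 7 in V2084D and 6 and 7 in V2084D shSTUB1. tRNA-Cys had 5 of 29 in each WT library, 2 and 3 in V2084D, and 5 in each V2084D shSTUB1 library. Both had most of their genes without a peak in any list, 24 for tRNA-Ala and 23 for tRNA-Cys. These low shares went with place. In WT, tRNA-Ala had a peak at 5 and 5 of its 31 genes on chromosome 6 and at 6 and 7 of 7 elsewhere. Of the tRNA-Cys genes, 12 and 6 lay in the chromosome 7 clusters that had no peak in any list. tRNA-Ser, with 17 of 26 genes on chromosome 6, had 20 and 18 in the WT libraries, 9 and 10 with V2084D, and 11 and 10 with V2084D shSTUB1. tRNA-Tyr (13) had 10 and 9, 3 and 7, and 4 and 4, and tRNA-Gln (19) had 12 and 11, 4 and 6, and 9 and 6.

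The remaining amino acids lay between these. tRNA-Asn (26 genes, 22 on chromosome 1) had 15 and 13 in WT, 9 and 10 in the V2084D libraries, and 11 and 10 in those of V2084D shSTUB1, and tRNA-Glu (20, with 14 on chromosome 1) had 13 and 13, 9 and 11, and 9 and 9. tRNA-Lys (27) had 16 and 16, 9 and 10, and 11 and 11, and tRNA-Ile (23) had 14 and 11, 7 and 7, and 7 and 8. tRNA-Thr (20) had 12 and 14, 8 and 9, and 9 and 11. tRNA-Phe (11) had 5 and 4, 2 and 3, and 2 and 3, tRNA-His (9) had 5 and 4, 3 and 5, and 4 and 2, and tRNA-Trp (7) had 5 and 5, 3 and 2, and 4 and 5. Of 2 selenocysteine tRNA genes, 1 had a peak, in every list except V2084D shSTUB1 library 1.

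tRNA gene names number the copies that share a mature sequence, so a family of copies such as TRL-AAG2 encodes 1 tRNA. Families with 2 or more copies (57 families, 222 genes) had a peak at 75.7% of genes in WT, 52.7% in V2084D and 58.6% in V2084D shSTUB1, and genes with a single copy at 48.0%, 22.9% and 30.1%. On chromosome 1 the values were 84.0%, 80.2% and 76.4% for genes in families against 45.2%, 25.8% and 29.0% for single copies. On chromosome 6 they were 52.3%, 13.1% and 26.2% against 38.7%, 10.7% and 13.7%, and on the other chromosomes 86.1%, 63.5% and 69.7% against 58.1%, 33.7% and 46.5%. How the authors' pipeline placed reads that match several copies is not given in the sources used here, and its part in these shares was not tested.

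Copies of 1 family could differ fully by location. In 15 families (73 genes), at least 1 copy had a peak in all 6 lists and at least 1 copy had none in any. TRL-AAG2 was one: TRL-AAG2-1 on chromosome 5, TRL-AAG2-3 on chromosome 14 and TRL-AAG2-4 on chromosome 16 had a peak in all 6 lists, and TRL-AAG2-2 on chromosome 6, whose window is printed above, had none. The TRL-AAG2-4 region at chr16:22296760-22298934 also holds an end of POLR3E, which encodes a subunit of RNA polymerase III. Its fold enrichments were 9.02 and 5.02 in the WT libraries, 9.76 and 8.23 with V2084D, and 9.61 and 6.15 with V2084D shSTUB1. Of the 6 TRF-GAA1 copies 2 had a peak in all 6 lists and 2 in none, and of the 9 TRH-GTG1 copies 1 and 4. TRG-TCC2 (6 copies, all on chromosome 1) and TRL-CAG1 (7 copies) had a peak at every copy in all 6 lists.

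The rule keeps only peaks within 1 kb of a tRNA gene, and among these the summit lay closer to the gene in the mutant lists. The median distance from summit to tRNA gene was 170 and 156 bp in the WT libraries, 114 and 106 bp with V2084D, and 95.5 and 106 bp with V2084D shSTUB1. The summit lay within 200 bp for 56.0% and 59.9% of tRNA peaks in WT, 74.1% and 75.9% in V2084D, and 77.3% and 76.7% in V2084D shSTUB1. No mutant library overlapped WT: V2084D was higher by 17.1 percentage points and V2084D shSTUB1 by 19.0 (exact permutation p = 0.333 for both, a comparison chosen after the data were seen). The WT lists were longer and their tRNA peaks wider, and the comparison was not made at equal list length. tRNA peaks were wider than the other peaks of their list, with medians of 674 and 596 bp against 518 and 501 bp in WT, 450 and 531 against 390 and 414 in V2084D, and 569 and 497 against 446 and 408 in V2084D shSTUB1. Merged tRNA regions were 824 bp wide at the median, against 512 bp for all regions. A merged region spans its peaks in every list, so its width can grow with the number of lists that hold a peak.

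Their strength was ordinary within most lists. The median fold enrichment of tRNA peaks was 5.12 and 4.66 in WT, 4.53 and 4.18 in the V2084D libraries, and 5.01 and 4.18 in those of V2084D shSTUB1, against 4.55, 4.37, 4.50, 4.15, 4.54 and 4.34 for the other peaks. As percentiles of their own list the medians were 66.3 and 57.0, 52.3 and 50.6, and 66.2 and 43.3. The 2 V2084D shSTUB1 libraries were thus the highest but one and the lowest. Near the edge of the 1 kb window, 8 regions had their tRNA gene over 800 bp away and 10 lay just outside the window, up to 1200 bp away. They had a peak in 1.12 and 1.6 lists on average, and none in all 6.

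tRNA genes with an end of a protein-coding gene within 1 kb (56) nearly all had a peak in WT: 55 in each WT library, 39 and 42 in V2084D, and 49 and 47 in V2084D shSTUB1. The 387 without such a neighbour had 218 and 207, 110 and 138, and 145 and 142. Of the 269 tRNA regions 61 had such an end within 1 kb, against 14749 of all 37969 regions. Where both lie in 1 region, a peak at the tRNA gene and a peak at the neighbour's promoter cannot be told apart.

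Genes of the wider polymerase III system were counted by a peak within 1 kb of either end. Examples with WT fold enrichments, here and in the gene lists that follow, were chosen by their rank in the WT lists. That choice can by itself set their WT values above their mutant values. Of 20 other polymerase III genes, among them those for 7SL, 7SK, RNase P and MRP, U6, vault and Y RNAs, 18 and 16 had a peak in WT, 9 and 8 in V2084D, and 13 in each V2084D shSTUB1 library. The shares of tRNA genes in these lists were 61.6%, 59.1%, 33.6%, 40.6%, 43.8% and 42.7%, and those of protein-coding genes 58.1%, 56.7%, 19.2%, 31.9%, 27.6% and 20.5%. Both libraries of a group had a peak at 16, 6 and 10 of the 20 genes. RN7SL1 encodes the RNA of the signal recognition particle. It had fold enrichments of 7.59 and 5.76 in the WT libraries, 5.94 and 4.97 with V2084D, and 2.93 and 4.33 with V2084D shSTUB1. RNU6ATAC, a minor spliceosome RNA, had 5.48 and 5.40, 3.15 and 3.11, and 4.19 and 5.2. VTRNA2-1 and RNY4 had no peak in any list.

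Of 18 genes for subunits of RNA polymerase III, 16 had a peak in both WT lists, 6 in both V2084D lists and 8 in both V2084D shSTUB1 lists, against 52.2%, 14.9% and 15.6% of protein-coding genes. POLR3F had fold enrichments of 7.66 and 8.74 in the WT libraries, 5.29 and 6.82 with V2084D, and 6.72 and 6.5 with V2084D shSTUB1, and POLR2L, a subunit shared with the other polymerases, had 8.60 and 6.59, 8.42 and 6.78, and 9.27 and 5.03. Of 18 genes for its factors, 15, 7 and 6 had a peak in both libraries. GTF3C5, a TFIIIC subunit, had 13.5 and 10.1 in WT, 7.72 and 6.16 in the V2084D libraries, and 8.05 and 10.1 in those of V2084D shSTUB1, and MAF1, the repressor of polymerase III, had 8.85 and 9.13, 4.38 and 3.73, and 4.97 and 5.91. BDP1, a TFIIIB subunit, had no peak in any list, and TBP had one in both V2084D lists only (5.44 and 6.59).

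Of 23 genes for cytosolic aminoacyl-tRNA synthetases and their scaffold proteins, which charge tRNAs, 20 had a peak in both WT lists, 6 in both V2084D lists and 7 in both V2084D shSTUB1 lists, where protein-coding genes at large stood at 52.2%, 14.9% and 15.6%. AIMP2 is a scaffold of the synthetase complex. It had fold enrichments of 15.4 and 10.98 in the WT libraries, 10.3 and 13.0 with V2084D, and 11.5 and 8.97 with V2084D shSTUB1. WARS1, the tryptophanyl-tRNA synthetase, had 9.30 and 8.49, 5.74 and 5.91, and 5.46 and 4.45, and CARS1 had no peak. Of 25 genes for tRNA processing and modification, 21, 6 and 6 had a peak in both libraries, beside the same protein-coding shares. NSUN2, a tRNA cytosine methyltransferase, had 9.94 and 7.84 in WT, 4.14 and 5.41 in V2084D and no peak in V2084D shSTUB1, TRDMT1, another tRNA cytosine methyltransferase, had a peak in all 6 lists, and TSEN34 had none.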

How the data were processed

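Flag ChIP-seq peaks were analysed from 6 libraries, 2 in each of 3 groups taken from the sample titles. Read trimming and alignment tools (Trimmomatic, Bowtie2), SAMtools and Picard, the peak caller MACS2, and deepTools with bedtools are named in the submitters' processing notes, with build hg38 and no versions. Which control served for peak calling, and how reads with several matches were treated, is not stated in the labels. The authors deposited 1 narrowPeak list per library, with a display score, a fold enrichment over control (a ratio), the −log10 p-value and −log10 q-value of each peak, and its summit. The smallest deposited −log10 q was 0.602, a q of 0.250. The members and the gene lists were chosen with earlier results of these data known.

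Peaks on assembled chromosomes (86429 of 88053) were merged over the lists by an overlap of at least 1 bp, and gaps to tRNA genes were taken from RefSeq gene positions on GRCh38.p14, leaving out 22 mitochondrial tRNA genes. Group differences used two-sided exact permutation tests over libraries, adjusted by Benjamini-Hochberg over the 3 group pairs of a measure; coverage over the 4 mutant libraries used a sign-flip permutation. Pattern counts stand beside their share of all regions and have no test. Shares in single libraries have 95% Wilson intervals for counting error only. The named tRNA regions were the 10 best by worst rank of −log10 q in each pattern (fewer where the pattern held fewer), and list examples were the 2 best by worst WT rank. Alternatives were other windows (0 bp, 200 bp, 5 kb), −log10 q or fold of at least 5, lists of 6000 peaks each, left-out chromosomes, neighbours or libraries, and the replicate block. The computations were tested on simulated data. They used Python 3.11.15, numpy 2.4.6, pandas 2.3.3, SciPy 1.17.1 and matplotlib 3.10.9.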

Additional observations from a re-analysis of the deposited data

How the results depend on the processing

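Of 219 alternative values of the 14 differences between groups or in coverage, 214 kept their direction. With 2 libraries a group, or 4 mutant libraries, no test could pass 0.05, so p-values say nothing about stability. Lists reduced to 6000 peaks each reversed 5 differences: tRNA regions (log2) to 0.17 for V2084D minus WT and 0.43 for V2084D shSTUB1 minus WT, tRNA genes to 0.45 and 6.77 percentage points, and the chromosome 1 share of V2084D shSTUB1 minus WT to -1.44 points. The coverage difference of 24.0 points ranged from 18.8 to 33.7 over its alternatives. Read depth is unknown, so absence of a peak is not absence of binding.

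Pattern counts moved more. A peak in all 6 lists was found at 66 regions, at 15 with a −log10 q of at least 5, 14 with a fold of at least 5 and 35 with equal lists. Both WT and no V2084D (59) became 37, 35, 5 with these settings and 30 without chromosome 6. Both WT and no mutant (31) became 19 for overlap with the gene, 20 within 200 bp, 17 at the stricter q, 1 with equal lists and 13 without chromosome 6. With equal lists, both V2084D and no WT became 11 and both V2084D shSTUB1 and no WT 12, the latter 0 at the stricter q. The pattern absent only in V2084D (8) became 5, 3 and 2 at the stricter q, the stricter fold and equal lists, and 5 without genes near protein-coding ends or without chromosome 6. The pattern absent only in V2084D shSTUB1 (2) became 0, 0 and 1, and 1 without chromosome 1. Stricter thresholds and equal lists leave fewer peaks, and left-out chromosomes fewer genes, by construction.

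Leaving out each library in turn gave 66 to 80 regions in all remaining lists, 59 to 108 for both WT and no V2084D, 34 to 71 for both WT and no mutant, 0 to 4 and 1 to 3 for the mutant-only patterns, 9 to 22 for the pattern absent only in V2084D and 2 to 10 for the one absent only in V2084D shSTUB1. A left-out library takes its condition out of each pattern, which can raise these counts by construction. The counts of 71 and 108 came without WT library 2, and 61 and 89 without WT library 1. The tRNA region difference ranged from -1.15 to -0.80 (log2) for V2084D minus WT and the coverage difference from 21.2 to 28.1 points.

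Libraries with the same replicate number did not deviate together over the 269 regions (correlations 0.032, 0.005 and 0.015). With the replicate number as a block the difference in tRNA regions between V2084D and WT stayed at -0.98 on the log2 scale, with an exact sign-flip permutation p of 0.5, the smallest that 2 pairs allow.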

Other observations

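RefSeq also annotates 84 tRNA pseudogenes, copies that are not expected to give a working tRNA. A peak within 1 kb was present at 5 of them in each WT library, 2 in each V2084D library, and 3 and 2 in V2084D shSTUB1. Of the 79 that lay more than 1 kb from any tRNA gene, 3 had a peak in each WT library (3.8%), none in V2084D, and 1 and 0 in V2084D shSTUB1. Among tRNA genes 61.6% and 59.1% had one in WT. This comparison was chosen after the data were seen and has no test.

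The 20 tRNA genes whose symbols give no copy family, such as TRNAA-AGC, had a peak in 15.0% of cases in each WT library, and 17 of the 20 had none in any list.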
